A study of Mus musculus with 4 samples.

Results

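The Notch pathway genes described here are 10 rows of the deposited count matrices, chosen by symbol among 52636 genes. They are the receptors Notch1, Notch2, Notch3 and Notch4, the ligands Jag1, Jag2 and Dll4, and the target genes Hes1, Hey1 and Heyl. Their unique molecular identifiers (UMIs, each standing for a captured RNA molecule) were summed per library and cell class in single cells of mouse kidney glomeruli, the filtering tufts of the kidney. There were 2 libraries labelled young and 2 labelled aged, all from untreated mice. The labels give neither the age in months nor the sex, the strain or the number of mice behind a library, so p-values measure only the spread between these libraries, which may be technical. Kidneys were perfused with magnetic beads, and the bead-holding glomeruli were pulled out with a magnet after a first digestion and broken up to single cells with warm enzymes, per the labels, and libraries were made with a 10x Genomics 3' kit. All 4 libraries share this preparation.

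Notch signalling passes between touching cells. A Jagged or Delta-like ligand on one cell binds a Notch receptor on its neighbour, the receptor is cut by an ADAM protease and then by gamma-secretase, and its freed intracellular part joins the DNA-binding protein RBPJ and switches on Hes and Hey genes, which encode transcriptional repressors. In vessels the pathway is known for arterial identity and sprouting in the endothelium and for the upkeep of smooth muscle, and in the kidney for the patterning of the nephron and for podocyte injury when it is active in adult glomeruli.

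The matrices held 33323 barcodes with 124600182 UMIs, between 18457791 and 42046542 per library. After filtering, 28000 cells in 35 clusters remained, and 28 clusters were assigned to classes by marker lists. The 10 genes and the wider pathway list were kept out of the genes used for clustering. Young replicate 2 stood apart, with a median of 1258 UMIs per cell against 2715 to 3730 in the other libraries and with 61.8% of its cells in no class against 2.14% to 4.81%. For that reason the age differences that the text turns on are also given without it. Barcode sequences seen in 2 or more libraries numbered 116. Podocyte-like, endothelial-like, mesangial-like and smooth muscle-like or renin-like cells carried all markers of their lists in every library, and these names are used below without the suffix. A further class of 4 sub-clusters was assigned by the markers of parietal epithelium, the lining of Bowman's capsule, and carried 5 or 6 of 6. The data left that name unsettled. This list had the highest level of all lists in each of the 4 sub-clusters, at 0.397 to 0.921 of the best cluster. All 4 sub-clusters had Tagln, a smooth muscle marker, among their leading 10 genes, and 2 of them had no parietal marker there. Smooth muscle markers summed to 2387 and 2442 young and 5068 and 7289 aged CPM (counts per 1000000 UMIs) in the class, with 2 to 4 of 8 detected and Cnn1, Ren1, Akr1b7 and Rergl at 0 in every library, against 1193 to 1851 CPM for its own list. The smooth muscle list had a mean sum of 37207 CPM in smooth muscle and renin cells. The sums in this class were 6.42% to 19.6% of that level. The class is therefore called by genes that lead all 4 sub-clusters, Tagln, Pcp4 and Cpe.

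The young libraries gave 2409 and 1402 endothelial cells and 1770 and 576 podocytes, and the aged ones 6026 and 4303 endothelial cells and 987 and 659 podocytes. There were 262 and 179 young and 655 and 523 aged mesangial cells, the contractile cells of the tuft. Tagln Pcp4 Cpe cells numbered 31 and 55 against 51 and 61, and smooth muscle and renin cells, from the vessels that feed and drain the tuft, 66 and 127 against 60 and 37. Different clusters held most of the mesangial class in the 2 age groups. Cluster 14 held 230 and 157 of the young but 23 and 14 of the aged mesangial cells, and cluster 9 held 32 and 22 of the young but 632 and 509 of the aged ones. The mesangial age comparison is therefore largely one between these clusters.

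Where each gene was found is given first, as UMIs of a gene per 1000000 UMIs of the class in a library (CPM), and these levels are a description without a test. Unless said otherwise, a range covers the libraries with at least 20 cells of the class.

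Among the receptors, Notch1 (ENSMUSG00000026923, GRCm38 chr2:26457903-26516663, minus strand) was highest in the endothelium. It stood at 318 and 384 CPM in the young and 395 and 311 CPM in the aged endothelial sums, above the mesangial range of 184 to 249 CPM in every library. Smooth muscle and renin cells had 49.9 to 64.2 CPM and Tagln Pcp4 Cpe cells 39.7 to 50.3 CPM, ranges that overlapped. Podocytes came last with 0.900 to 4.01 CPM, resting on 7, 11, 21 and 20 UMIs. Of all Notch1 UMIs in assigned cells, 81.3% lay in endothelial and 15.4% in mesangial cells.

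Notch4 (ENSMUSG00000015468, chr17:34564268-34588503, plus strand) is a receptor known from endothelium, and the endothelial class held 89.5% of its UMIs. Its level there was 72.8 and 79.1 CPM in the young and 83.4 and 64.9 CPM in the aged libraries. The mesangial class followed at 7.97 to 19.9 CPM, overlapping the smooth muscle range of 0 to 17.8 CPM, and podocytes had 4.63 to 7.59 CPM.

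Notch3 (ENSMUSG00000038146, chr17:32120820-32166852, minus strand), the receptor known from mural cells, followed another order. It reached 486 and 364 CPM in young and 421 and 479.9 CPM in aged smooth muscle and renin cells and 66.5 to 90.1 CPM in mesangial cells. Both ranges lay apart from each other and from the endothelium, where 14 UMIs in all gave 0.307 to 0.501 CPM. In 342 B cells no Notch3 UMI was seen, which allows up to 6.10 CPM over all libraries (3 counts, counting error only).

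Notch2 (ENSMUSG00000027878, chr3:98013527-98150361, plus strand) had its largest share of UMIs, 35.6%, in podocytes. They had 21.0 and 28.1 CPM in the young and 20.8 and 26.3 CPM in the aged libraries, above the mesangial range of 6.74 to 11.0 CPM and the endothelial range of 2.69 to 5.51 CPM in every library. Medians were higher in monocytes and dendritic cells (63.5 to 98.6 CPM) and in smooth muscle and renin cells (23.8 to 71.3 CPM). They were also higher in Tagln Pcp4 Cpe cells (26.7 to 85.2 CPM) and B cells (10.8 to 42.0 CPM). The same held for distal tubule cells (3.64 to 55.8 CPM) and macrophages (23.7 to 26.6 CPM). Neighbours in the order down to podocytes overlapped.

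Dll4 (ENSMUSG00000027314, chr2:119325784-119335962, plus strand), a ligand of sprouting and arterial endothelium, was the most endothelial of the 10 by its share of UMIs, with 96.4% of 8503. It stood at 189.7 and 234 CPM in young and 212 and 162 CPM in aged endothelial cells and at 13.2 to 22.7 CPM in mesangial cells. No Dll4 UMI was seen in 198 Tagln Pcp4 Cpe cells, which allows up to 2.60 CPM. Jag2 (ENSMUSG00000002799, chr12:112907819-112929776, minus strand) was likewise highest in the endothelium, with 47.9 and 63.6 CPM in the young and 49.6 and 46.9 CPM in the aged libraries, against 8.12 to 12.8 CPM in mesangial and 0.401 to 0.711 CPM in podocyte sums.

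Jag1 (ENSMUSG00000027276, chr2:137081456-137116644, minus strand) was the broadest ligand. Its level was 62.3 to 178 CPM in smooth muscle and renin cells and 53.4 to 102 CPM in Tagln Pcp4 Cpe cells, 2 ranges that overlapped. Endothelial cells had 26.9 to 37.5 CPM, below the range of the Tagln Pcp4 Cpe cells in every library, and mesangial cells 19.2 to 26.5 CPM. Podocytes had 0.386 to 2.16 CPM.

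The 250 bases before the RefSeq start sites (GRCm38.p6) are shown for Dll4 and Notch3, the members found mainly in the endothelium and mainly in mural cells. Dll4 lies on the plus strand and the window is chr2:119325534-119325783. The Notch3 window is chr17:32166891-32167140, read on the minus strand.
Dll4: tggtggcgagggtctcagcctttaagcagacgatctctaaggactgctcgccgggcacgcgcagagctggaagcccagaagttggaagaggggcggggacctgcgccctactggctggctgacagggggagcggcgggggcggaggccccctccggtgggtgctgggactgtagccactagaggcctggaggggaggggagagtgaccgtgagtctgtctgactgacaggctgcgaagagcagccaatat
Notch3: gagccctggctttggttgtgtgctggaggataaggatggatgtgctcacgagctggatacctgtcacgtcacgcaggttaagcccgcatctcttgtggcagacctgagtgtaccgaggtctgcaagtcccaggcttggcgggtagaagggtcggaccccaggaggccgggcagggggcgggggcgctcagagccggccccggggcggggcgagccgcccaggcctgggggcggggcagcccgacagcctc
Both were searched on either strand for TGGGAA, the core of the RBPJ site, which would be printed in capitals. Neither window holds it, nor do those of the 5 other members with an entry (Notch1, Notch2, Notch4, Jag1 and Jag2). Of 32851 RefSeq windows of the same length, 21.6% do. Among other pathway genes with an entry, 12 of 33 hold it in any of their windows. Some of these genes have several windows, so that count per gene cannot be set against the share per window. Hes1, Hey1 and Heyl had no entry. The Dll4 window has 65.6% G and C and 14 CpG pairs, and the Notch3 window 68.8% and 17.

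Hes1 (ENSMUSG00000022528, chr16:30064384-30067796, plus strand), a repressor that many other signals also induce, was found in all 5 tested classes. It stood at 411 to 541 CPM in smooth muscle and renin cells, above every other of these classes. Mesangial cells (230.4 to 307 CPM) and endothelial cells (183 to 264 CPM) overlapped, and podocytes (144 to 157 CPM) lay below both and overlapped the range of the Tagln Pcp4 Cpe cells of 40.1 to 191 CPM. In T and NK cells 2 UMIs were found.

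Hey1 (ENSMUSG00000040289, chr3:8663359-8667256, minus strand), a target known from arterial endothelium, had 12.6 to 18.4 CPM in the endothelium, which held 93.1% of its 653 UMIs. Smooth muscle and renin cells had 4.63 to 24.95 CPM from 14 UMIs and overlapped it. Heyl (ENSMUSG00000032744, chr4:123233556-123249875, plus strand), a target known from smooth muscle, was highest in smooth muscle and renin cells, with 68.6 to 134 CPM. Tagln Pcp4 Cpe cells had 21.2 to 30.0 CPM, on 30 UMIs, and mesangial cells 8.22 to 12.9 CPM. No Heyl UMI was seen in 3992 podocytes, which allows up to 0.139 CPM, and only 4 were seen in the endothelium, all in aged replicate 1.

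Some members overlap other annotated genes. Notch1 overlaps 0610009E02Rik and Gm13568, Notch3 overlaps Gm17276, Notch4 overlaps Gm20462 and Dll4 overlaps Gm14207 on the opposite strand, and Notch2 overlaps Gm42819 and Gm42820 on its own strand. How the counting treated strand is not given in the sources used here.

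**Figure D1:**
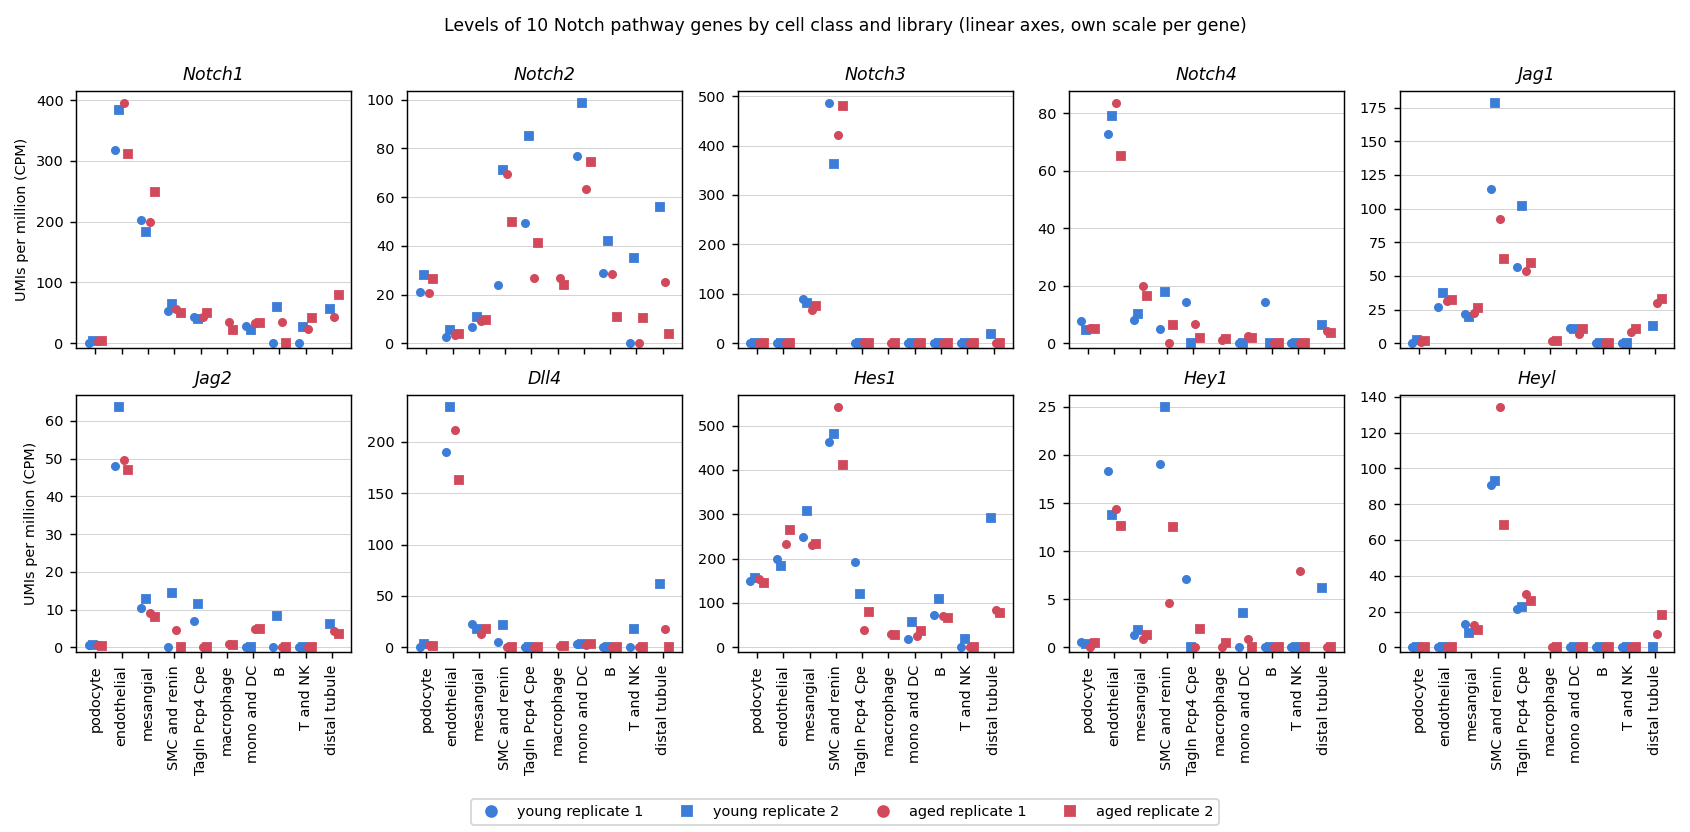
UMIs scaled to the class total (CPM, linear vertical axis with its own scale per gene) for each of the 10 genes in 10 cell classes; each point is 1 library with at least 20 cells of the class, blue for young and red for aged, circles for replicate 1 and squares for replicate 2. Notch1, Notch4, Jag2 and Dll4 peak in the endothelial class and Notch3, Hes1 and Heyl in smooth muscle and renin cells (SMC), where Notch3 reached 364 to 486 CPM.

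Across 32 sums (8 classes with at least 20 cells in every library, 4 libraries), the profile of Notch3 was nearest to those of Rgs4 (Pearson r 0.988) and Ndufa4l2 (0.978), and that of Heyl to Pde1a (0.983) and Fxyd1 (0.975). Dll4 was nearest to Afap1l1 (0.907) and Unc45b (0.907), Jag2 to Sost (0.931) and Mmrn2 (0.927), Notch4 to Kank3 (0.864) and Sde2 (0.839), and Notch1 to Sgk1 (0.889) and Fas (0.871). Hes1 lay nearest to Sh3pxd2a (0.918) and Dennd5b (0.889), Jag1 to Ccdc102a (0.906) and Creb5 (0.893), Hey1 to Ttll7 (0.870) and Jam2 (0.832), and Notch2 to Pdxk (0.798) and Vapa (0.753). Among the members themselves the most similar pairs were Notch3 with Heyl (0.794), Dll4 with Jag2 (0.763) and Jag1 with Heyl (0.756). These values describe log2(CPM + 1) over sums that share libraries and classes.

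Within the endothelium the genes were not evenly spread. Most endothelial cells were glomerular capillary-like (1858 and 984 young, 3175 and 2550 aged cells). A cluster with capillary and activation markers, led by genes that include Sele and Il6, took 161 and 133 young against 1518 and 971 aged cells, an arteriolar-like cluster 192 and 76 against 813 and 435, and a cluster led by Tspan8, Thbs2 and Fbln2, among others, 198 and 209 against 520 and 347. The arteriolar-like name rests on the mean level of a marker list, of which only Fbln5 was among the cluster's leading 10 genes. Since a cluster against the rest is no test, the levels are again given as values.

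The arteriolar-like cluster had the highest levels of Notch4, Dll4 and Hey1, with each library above every library of the other 3 kinds. Dll4 stood there at 362 and 587 CPM in young and 408 and 309 CPM in aged libraries, against 172 to 249 CPM in glomerular capillary cells and 73.5 to 103 CPM in the Tspan8 cluster. Notch4 was at 122 to 180.1 CPM against 60.5 to 74.8 CPM in glomerular capillary cells. Hey1 was at 62.8 and 103 CPM in the young and 43.4 and 38.0 CPM in the aged libraries, against 11.8 to 18.2 CPM, and it was at 1.84 to 6.65 CPM in the activated and 1.75 to 4.79 CPM in the Tspan8 cluster.

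Both Jagged ligands were high in the arteriolar-like and Tspan8 clusters. Jag1 had 126 to 194 CPM in the former and 83.9 to 138 CPM in the latter, against 9.50 to 14.2 CPM in glomerular capillary and 5.53 to 9.54 CPM in activated capillary cells. Jag2 had 72.5 to 154 and 93.4 to 126 CPM in these 2 clusters, against 36.9 to 51.8 and 26.4 to 35.0 CPM. Hes1 ran the other way, with 198 to 303 CPM in glomerular capillary and 192 to 245 CPM in activated capillary cells, against 109 to 180.1 CPM in the arteriolar-like and 103 to 175 CPM in the Tspan8 cluster. Notch1 lay between 239.6 and 597 CPM over all 4 kinds, and neighbours in its order overlapped.

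**Figure D2:**
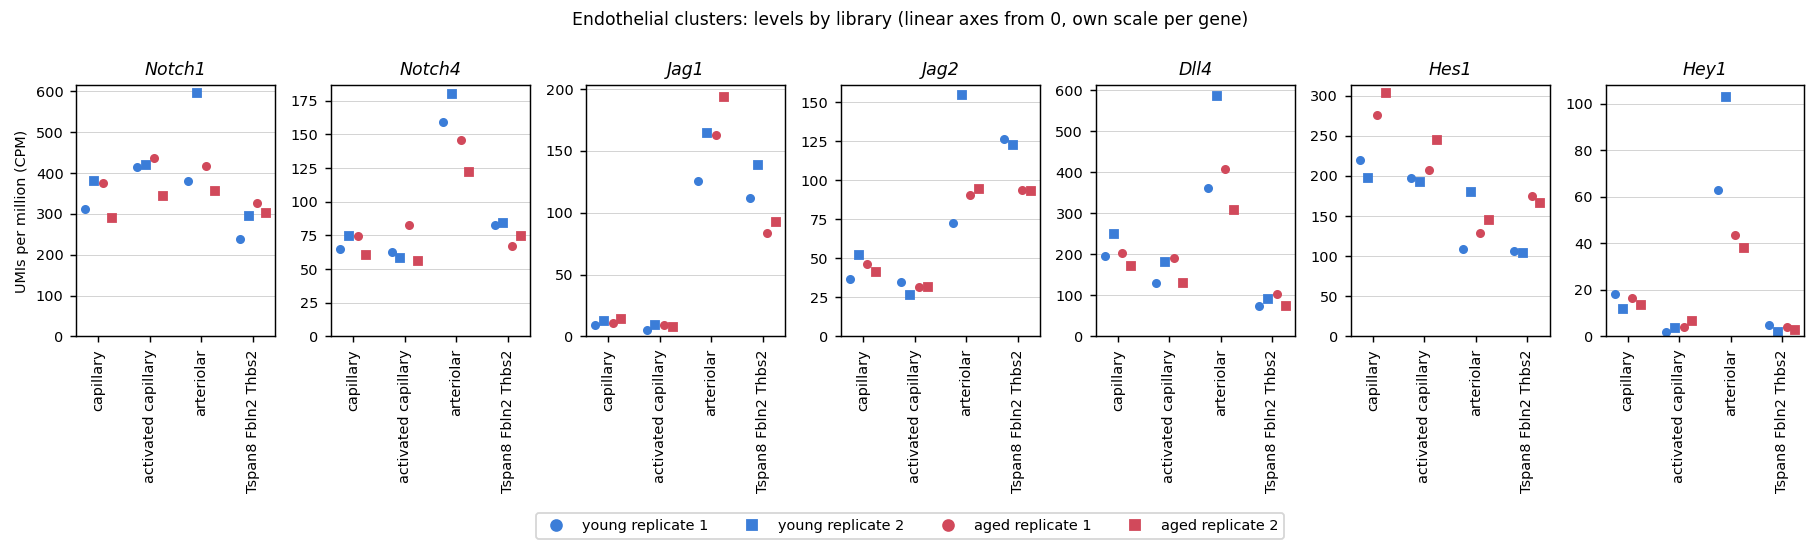
CPM (linear axes from 0, own scale per gene) of 7 genes in the 4 endothelial kinds, 1 point per library, blue for young and red for aged. Dll4, Notch4 and Hey1 peak in the arteriolar-like cluster (Dll4 at 309 to 587 CPM), Jag1 and Jag2 in that and the Tspan8 cluster, and Hes1 in the capillary clusters.

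The next question was whether any of these levels differed between aged and young libraries. No member was called in any class by edgeR's quasi-likelihood test at a Benjamini-Hochberg adjusted p under 0.05. Over 5 classes 32 tests were possible, and the other 18 combinations of gene and class had too few UMIs for the filter. Of the 32, 6 had an unadjusted p under 0.05, and DESeq2 called 1. Between 10.4% and 22% of all genes had such a p in the 5 classes (18.5% in the endothelium), so the members' count was near the background. Genes that passed only through the group where they were high had to differ, so the numbers below are read against all genes of the class.

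In the endothelium 0 of 8 members tested were called, where 5.89% of all 13149 genes tested were called. The median log2 fold change of the 8 was 0.023, beside −0.0057 over all genes. Both aged libraries lay on one side of both young ones for 1 of the 8, against 52% of all genes. That gene was Hes1, at 199.7 and 183 CPM in the young and 233 and 264 CPM in the aged libraries. Both aged values lay above both young ones. The log2 fold change was 0.50 (SE 0.15), with an edgeR adjusted p of 0.0585, so it missed the threshold. DESeq2 gave an adjusted p of 0.0423, and without young replicate 2 edgeR gave a log2 fold change of 0.39. Over all alternatives its adjusted p from edgeR or DESeq2 ran from 0.0114 to 0.875. By kind of cell, edgeR gave Hes1 a log2 fold change of 0.55 in glomerular capillary cells (adjusted p 0.0549), where 3.76% of all genes were called. It was 0.33 in activated capillary cells (adjusted p 0.374, 3.24% of genes called) and 0.14 in arteriolar-like cells (adjusted p 0.875, 2.17% called). In the Tspan8 cluster, where 3.22% of 7710 genes were called, Hes1 rose from 107 and 103 CPM in the young to 175 and 166 CPM in the aged libraries (0.82, edgeR adjusted p 0.0129).

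Other endothelial members differed little between the groups relative to their spread. For Notch1 the log2 fold change was 0.14 (SE 0.16), for Notch4 0.093 (SE 0.15), for Dll4 −0.047 (SE 0.16), for Jag1 0.12 (SE 0.16), for Jag2 −0.069 (SE 0.15) and for Hey1 −0.16 (SE 0.20), and edgeR adjusted p-values lay between 0.723 and 0.925. Notch2 rested on 17 to 60 UMIs and had −0.056 (SE 0.34).

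Of 16 genes known to respond to tissue dissociation, edgeR called Dusp1 and Ier3 as higher in the aged endothelium, where 3.96% of all genes were. It called 0 as lower, though 6 had a log2 fold change below 0. Dusp1, a phosphatase gene of the early stress response, stood at 903 and 799 CPM in the young and 1859.7 and 1665 CPM in the aged libraries (log2 fold change 1.17, edgeR adjusted p 0.000375). The list's median log2 fold change was 0.35. Podocyte markers summed to 931 and 1336 CPM in the young and 832 and 804 CPM in the aged endothelial sums, with all 8 detected. Mesangial markers summed to 34.5 and 68.8 against 102 and 113 CPM, with 7 of 7 detected. The part of any of these in the Hes1 difference was not tested.

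In mesangial cells 0 of 9 members tested were called, where 6.53% of 10647 genes were. Both aged libraries lay on one side of the young ones for 5 of the 9, against 54.9% of all genes. One member, Notch4, had an unadjusted p under 0.05, as did 22% of all genes, and DESeq2 called 0. Notch4 stood at 7.97 and 10.0 CPM in the young (13 and 11 UMIs) and 19.9 and 16.4 CPM in the aged libraries (89 and 93 UMIs), a log2 fold change of 1.14 (SE 0.32) with an edgeR adjusted p of 0.0549. Leaving out 1 library at a time gave log2 fold changes from 0.975 to 1.32, with 1.29 without young replicate 2 and 1.32 without aged replicate 2. Within cluster 9 alone, which held 2 Notch4 UMIs in each young library and where 1.32% of all genes were called, the log2 fold change was −0.10 (adjusted p 0.995), and with cells kept that carried markers of several classes it was −0.41 (adjusted p 0.215). Keeping those cells took the mesangial class of young replicate 2 from 179 cells (median 3754 UMIs) to 1425 (median 1151). The other libraries went from 262 young and 655 and 523 aged cells to 440, 726 and 648. In the main fit, endothelial markers summed to 1205 and 1272 CPM in the young and 1681 and 1559.9 CPM in the aged mesangial sums, with all 8 detected. Without Eng, left out after the values were seen, the sums were 377 and 518 against 462 and 433 CPM. Podocyte markers summed to 409 and 604 against 338 and 349.8 CPM and smooth muscle markers to 259 and 189.9 against 317 and 298 CPM. The part of these markers in the Notch4 values was not tested.

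Notch3 in mesangial cells stood at 90.1 and 82.2 CPM in the young and 66.5 and 74.5 CPM in the aged libraries. The groups did not overlap, yet the log2 fold change was only −0.18 (SE 0.16), with an edgeR adjusted p of 0.562. Hes1 stood at 248 and 307 against 230.4 and 233 CPM, with −0.14 (SE 0.16, adjusted p 0.641), and within cluster 9 alone its log2 fold change was 0.70 (adjusted p 0.368). Notch1 had 0.32 (SE 0.16), Notch2 0.24 (SE 0.37), Jag1 0.37 (SE 0.24), Jag2 −0.30 (SE 0.35), Dll4 −0.28 (SE 0.28) and Heyl 0.15 (SE 0.36), with edgeR adjusted p-values between 0.256 and 0.861. Without aged replicate 1, edgeR called Notch1 (log2 fold change 0.45, adjusted p 0.0443). With those mixed cells kept, edgeR called Dll4 (−1.49, adjusted p 0.0144). In that setting young replicate 2 had 1425 mesangial cells against 179 in the main fit, and the part of the added cells was not tested.

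In podocytes 0 of 5 members tested were called, where 6.02% of 10889 genes were (3.97% as higher and 2.05% as lower), and DESeq2 called 0. Both aged libraries lay on one side of the young ones for 1 of the 5, against 46.1% of all genes. Hes1 stood at 149 and 157 CPM in the young and 154 and 144 CPM in the aged libraries. The groups overlapped, and the log2 fold change was 0.018 (SE 0.13) with an edgeR adjusted p of 0.967. Notch2, at 21.0 and 28.1 against 20.8 and 26.3 CPM, had 0.032 (SE 0.19). Notch4, at 7.59 and 4.63 against 5.34 and 4.81 CPM, had −0.31 (SE 0.32), and Dll4, on 4 to 12 UMIs, had 0.10 (SE 0.65). Notch1 alone had an unadjusted p under 0.05, as did 16.8% of all genes, with 0.900 and 3.40 CPM in the young and 3.73 and 4.01 CPM in the aged libraries. On the log2 scale the aged level was 1.21 higher (SE 0.49) with an edgeR adjusted p of 0.169, and the value was 0.27 without young replicate 1 and 2.10 without young replicate 2. Endothelial markers, whose class has the highest Notch1 level, summed to 35.4 and 95.4 CPM in the young and 75.4 and 57.9 CPM in the aged podocyte sums, with all 8 detected. Smooth muscle markers summed to 23.1 and 26.9 against 70.8 and 103 CPM, with 3 to 6 of 8 detected. The part of these markers in the Notch1 values was not tested.

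In Tagln Pcp4 Cpe cells 0 of 4 members tested were called, where 4.24% of 4387 genes were. Of the 4, 2 had an unadjusted p under 0.05, as did 18% of all genes. DESeq2 also called 0 but gave no adjusted p for Hes1 and Notch2. The groups did not overlap for 3 of the 4, against 49.6% of all genes. Hes1 stood at 191 and 119 CPM in the young and 40.1 and 80.2 CPM in the aged libraries, on 27, 21, 12 and 43 UMIs. Both aged values lay below both young ones. The log2 fold change was −1.22 (SE 0.37) with an edgeR adjusted p of 0.0762, and −1.53 (adjusted p 0.0433) without young replicate 2. It also passed the threshold without aged replicate 2 (−1.88, adjusted p 0.00126) and moved to −0.78 (adjusted p 0.362) without young replicate 1. Notch2, at 49.6 and 85.2 against 26.7 and 41.0 CPM, had −0.92 (SE 0.44, adjusted p 0.276) and −0.44 without young replicate 2. Notch1, at 42.5 and 39.7 against 43.4 and 50.3 CPM, had 0.24 (SE 0.45), and Jag1, at 56.7 and 102 against 53.4 and 59.7 CPM, had −0.48 (SE 0.37). The groups of Jag1 overlapped, and those of Notch1 rested on 6 to 27 UMIs.

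Genes of the dissociation response moved beside Hes1 in this class, where 1.94% of all genes were called as lower and 2.3% as higher. Of the 16, edgeR called 8 as lower in aged libraries and 0 as higher, with a median log2 fold change of −0.79 over the list. The log2 fold change was above 0 for 4 of the 16. Fos stood at 3619 and 3617 CPM in the young and 1399 and 2051 CPM in the aged libraries, and Egr1 at 1424 and 1687 against 431 and 615 CPM. Both are immediate early genes, switched on within minutes of a stimulus. Their log2 fold changes were −1.04 and −1.53 (edgeR adjusted p 0.00188 and 0.000158). Smooth muscle markers, from the class with the highest Hes1 level, were higher in the aged sums, as given above. Podocyte markers summed to 1027 and 1596 against 798 and 765 CPM, mesangial markers to 255 and 341 against 130 and 224 CPM and endothelial markers to 28.3 and 369 against 36.7 and 11.2 CPM. The part of these genes and markers in the Hes1 difference was not tested.

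In smooth muscle and renin cells 0 of 6 members tested were called, where 0.998% of 3508 genes were, and DESeq2 called 0. Notch3, at 486 and 364 CPM in the young and 421 and 479.9 CPM in the aged libraries, had a log2 fold change of 0.13 (SE 0.22), and Heyl, at 90.5 and 92.7 against 134 and 68.6 CPM, had 0.24 (SE 0.36). Hes1 had 0.070 (SE 0.21), Notch1 −0.10 (SE 0.41) and Notch2 0.32 (SE 0.50). Jag1 was the only member here whose groups did not overlap, against 41% of all genes. It also had an unadjusted p under 0.05, as did 10.4% of all genes, and it stood at 114 and 178 CPM in the young and 92.5 and 62.3 CPM in the aged libraries, on 24, 50, 20 and 10 UMIs. The aged minus young difference was −0.86 on the log2 scale (SE 0.35, edgeR adjusted p 0.402), and −0.49 without young replicate 2, in which endothelial markers summed to 1048 CPM against 76.2 to 262 CPM in the other libraries. Podocyte markers summed to 1487 CPM there against 287 to 361 CPM. Mesangial markers, whose class has 19.2 to 26.5 CPM of Jag1, summed to 829 and 1283 CPM in the young and 2327 and 2618 CPM in the aged sums, with 7 of 7 detected. The part of these markers in the Jag1 values was not tested.

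**Figure D3:**
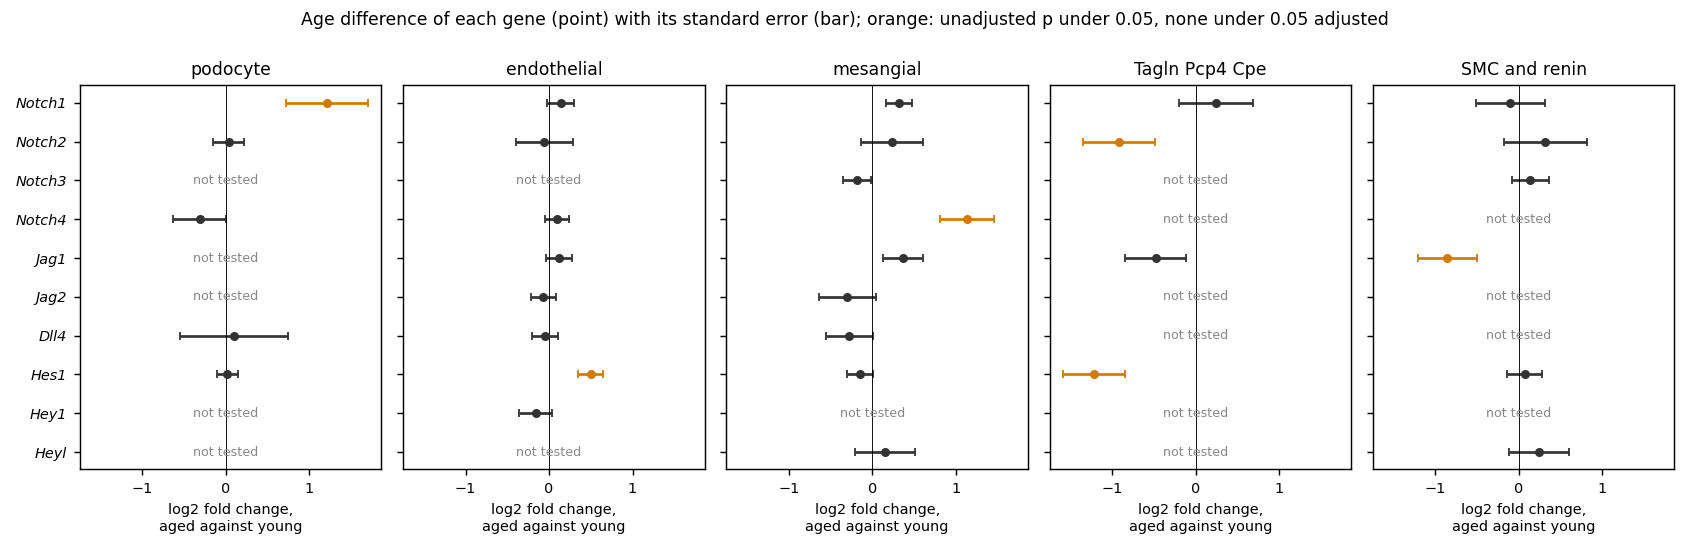
Log2 fold change of aged against young (horizontal axis) for each gene in the 5 tested classes, with bars for the standard error from edgeR; orange marks an unadjusted p under 0.05 and grey text a gene with too few UMIs to test. The 6 orange points include Hes1 in the endothelial class (0.50) and in Tagln Pcp4 Cpe cells (−1.22), and no point passed the adjusted threshold.

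Whether an age difference differed between classes was asked with an interaction test, with the library as a block. Of 8 members tested between podocytes and endothelium, edgeR called 1, where 6% of 13015 genes were called. That was Hes1, whose endothelial age difference exceeded that of podocytes by 0.49 on the log2 scale (SE 0.12, edgeR adjusted p 0.0162). Without young replicate 2 the difference was 0.37 and the call was lost (adjusted p 0.146). Between endothelium and mesangial cells, 1 of 10 members was called, where 2.27% of 12750 genes were. It was again Hes1, with a mesangial minus endothelial difference of −0.65 (SE 0.17, edgeR adjusted p 0.0484). This call was lost with RLE size factors (adjusted p 0.0674), without young replicate 1 (−0.91, adjusted p 0.112), without young replicate 2 (−0.39, adjusted p 0.622) and without aged replicate 2 (−0.43, adjusted p 0.306). Notch4 missed the threshold in the same comparison (difference 1.04, SE 0.29, adjusted p 0.0670). Between podocytes and mesangial cells 0 of 9 members were called by edgeR, where 4.64% of 12604 genes were, and 2 had an unadjusted p under 0.05. DESeq2 was not run on these comparisons. Calls from the 16 genes of the dissociation list differed between these classes. In the endothelium 2 were called as higher and 0 as lower, where 3.96% and 1.93% of all genes were. In mesangial cells 5 were lower (Jun, Egr1, Atf3, Nr4a1 and Btg2) and 0 higher, against 2.34% and 4.19% of all genes. In podocytes 4 were higher (Atf3, Ier3, Hspa1a and Hspa1b) and Dusp1 lower, against 3.97% and 2.05%. By log2 fold change, 6 of the 16 were below 0 in the endothelium, 5 above 0 in mesangial cells and 7 below 0 in podocytes. The part of these genes in the Hes1 differences was not tested.

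**Figure D4:**
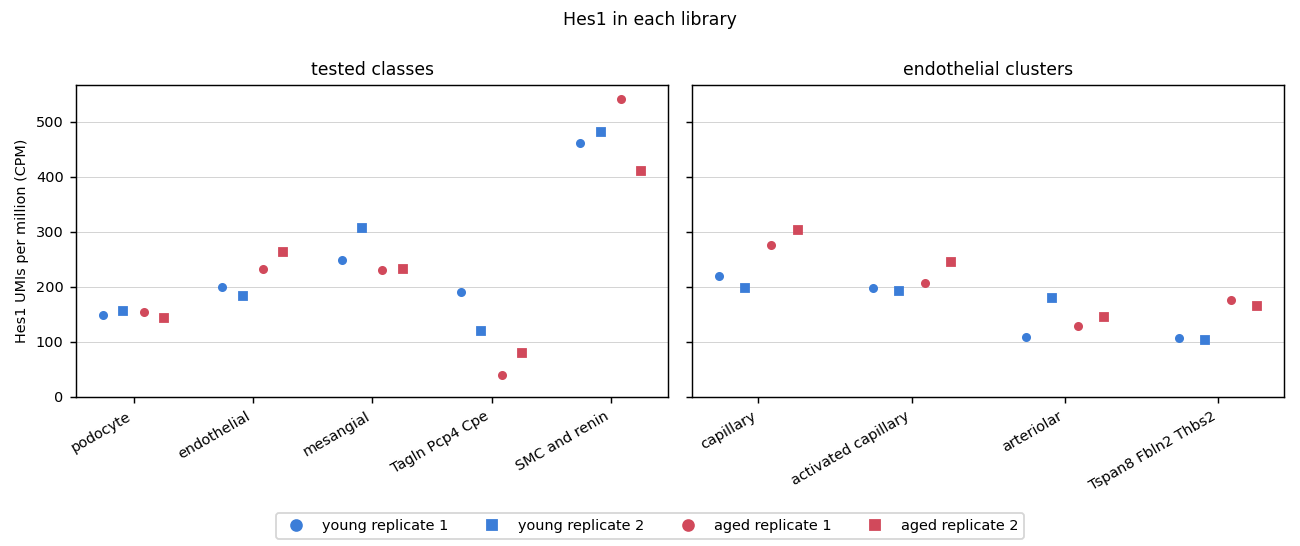
Hes1 CPM (linear vertical axis from 0) in the 5 tested classes (left) and the 4 endothelial kinds (right), 1 point per library, blue for young and red for aged. The aged points lie above the young ones in the endothelial class (233 and 264 against 199.7 and 183 CPM) and below them in Tagln Pcp4 Cpe cells, and the podocyte points lie between 144 and 157 CPM.

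The wider pathway was followed with a list of 41 further genes for ligands, glycosyltransferases, proteases, gamma-secretase subunits, nuclear partners and regulators. In the endothelium, 3.96% of all genes were called as higher and 1.93% as lower. Of 36 pathway genes tested there, edgeR called 3 as higher in aged libraries and 0 as lower. Their median log2 fold change was 0.021, with 20 above 0 and 16 below. Neurl1b, a ubiquitin ligase gene that acts on Notch ligands, stood at 16.0 and 20.5 CPM in the young and 28.6 and 31.1 CPM in the aged libraries (log2 fold change 0.85, SE 0.17, edgeR adjusted p 0.00330). Aph1b, a gamma-secretase subunit gene, stood at 13.4 and 14.3 against 18.8 and 26.1 CPM (0.82, SE 0.20, adjusted p 0.0149). Furin, the convertase gene whose product cuts the receptor precursor, stood at 66.9 and 72.1 against 92.3 and 88.2 CPM (0.50, SE 0.14, adjusted p 0.0313). Of the 36 genes, 11 had groups that did not overlap, against 52% of all genes. Rbpj, the DNA-binding partner, had 0.16 on that scale (edgeR adjusted p 0.649).

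In mesangial cells edgeR called 2 of 33 pathway genes as lower and 0 as higher, where 2.34% and 4.19% of all genes were. The log2 fold change was above 0 for 19 of the 33 and below 0 for 14. Maml3, a Mastermind-like coactivator gene, stood at 193 and 214 CPM in the young and 135 and 109 CPM in the aged libraries (−0.62, SE 0.17, edgeR adjusted p 0.0453). Spen, a corepressor gene of the RBPJ complex, stood at 101 and 105 against 58.4 and 66.5 CPM (−0.61, SE 0.16, adjusted p 0.0393). In Tagln Pcp4 Cpe cells edgeR called 0 of 12 pathway genes, and in smooth muscle and renin cells 0 of 8, where 0.741% of all genes were called as higher and 0.257% as lower.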

How the data were processed

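The authors deposited UMI counts per gene and barcode, one matrix per library, with no normalization. The labels' protocols name Cell Ranger 3.1.0, the submitters' processing notes Cell Ranger 6.0.1, Partek and GRCm38, and these sources leave the version behind the counts unsettled. Of 52636 gene IDs 52489 were found in GENCODE vM21. The members and lists were chosen with earlier results of these data known.

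Barcodes with at least 500 genes and at most 20% mitochondrial UMIs were kept. Scrublet's automatic threshold marked 134 (0.449%), so the highest scores were removed at 0.8% per 1000 barcodes (1876, 6.28%). Clusters (scanpy 1.11.5, leidenalg 0.10.2, resolution 1) were named from marker lists, with thresholds set after seeing the data (a level of at least 0.35 of the best cluster, and an unrelated class under 0.4 of it), and mixed cells were left out. UMIs were summed per class and library and tested with edgeR 4.0.16 (TMM, default filter). DESeq2 1.42.0 was an alternative. SE was taken as the log2 fold change over the root of the F statistic. The tests were checked on simulated counts. The text names every member tested in a class, pathway genes that were called (the podocyte result of that list is not reported here) and, for each member, the 2 genes with the highest correlation of log2(CPM + 1) at a mean of at least 10 CPM. Alternatives were other size factors, DESeq2, no filter, the replicate block, a UMI minimum, doublets or mixed cells kept, resolution 2, single clusters and leaving out each library.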

Additional observations from a re-analysis of the deposited data

Results flagged for a closer look

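The age difference of Hes1 differed between classes by the interaction test of edgeR. It was larger in the endothelium than in podocytes by 0.49 on the log2 scale, and by 0.37 without young replicate 2. Both aged endothelial libraries lay above both young ones, where 52% of all endothelial genes had groups that did not overlap in either direction. The podocyte groups overlapped. The mesangial minus endothelial difference was −0.65, and −0.39 without young replicate 2. That difference also rests on mesangial sums drawn from different clusters in the 2 age groups. Neither call held under every alternative, and the second was lost with RLE size factors. Within cluster 9 alone the mesangial log2 fold change of Hes1 was 0.70, against −0.14 over both clusters. Of 16 dissociation genes edgeR called 2 as higher in the aged endothelium, where 3.96% of all genes were. It called 5 as lower in aged mesangial cells, where 2.34% of all genes were. The part of these 16 genes in this difference was not tested.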

How the results depend on the processing

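Alternatives gave 435 values of members, with Hes1 alone counted for the interaction tests. Of these, 363 kept their direction and, where an adjusted p was given, their side of the threshold. A further 12 passed it, 5 no longer passed it and 55 changed sign. Those that changed sign were not called to begin with. Depth limits the low genes, since 18 of 50 combinations could not be tested. The count of members called was 0 in each class. In the endothelium it was 1 (Hes1) with DESeq2, with the replicate block and in the Tspan8 cluster alone. Of all genes, 505 of 13149, 1245 of 13149 and 248 of 7710 were called there, against 775 of 13149 in the main fit. In mesangial cells the count of members was 1 without the filter (Notch4), with the replicate block (Notch4) and with mixed cells kept (Dll4). All genes called there numbered 1199 of 19964, 1529 of 10647 and 640 of 11945, against 695 of 10647 in the main fit. The mesangial count of members also moved when 1 library was left out. In Tagln Pcp4 Cpe cells the count of members was 1 (Hes1) with the replicate block and with at least 1000 UMIs per cell. There 304 of 4387 and 207 of 4239 genes were called, against 186 of 4387 in the main fit. The count of members in this class also moved when 1 library was left out. Between endothelium and mesangial cells the main count of 1 was 0 with RLE size factors and 2 without the filter (Notch4 and Hes1). All genes called in these 2 settings numbered 297 of 12750 and 474 of 24637, against 290 of 12750 in the main fit. This count of members also moved when 1 library was left out. Between podocytes and mesangial cells 0 became 1 without the filter, where 724 of 22682 genes were called against 585 of 12604 in the main fit. That count of members also moved when 1 library was left out. Between podocytes and endothelium the gene called without young replicate 2 was Notch1, not Hes1.

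The replicate numbers of the titles showed no sign of pairing the libraries (correlation of same-numbered deviations −0.040 to 0.072 over genes, 2 pairs). With so few pairs, the check cannot exclude a pairing. The replicate block moved the count of all genes called from 775 to 1245 in the endothelium and from 695 to 1529 in mesangial cells, and gave Hes1 in the endothelium 0.50 (adjusted p 0.0114), Notch4 in mesangial cells 1.15 (adjusted p 0.0119) and Hes1 in Tagln Pcp4 Cpe cells −1.23 (adjusted p 0.00870). Without either young library, 0 genes of all were called in the endothelium and in mesangial cells. With mixed cells kept 7 of all genes were called in podocytes against 655, and without the filter 5 in the endothelium against 775. Keeping mixed cells took the podocytes of young replicate 2 from 576 (median 5822.5 UMIs) to 3022 (median 1098). Resolution 2 took them to 1614 (median 1376). In the other libraries, keeping mixed cells took the podocytes from 1770, 987 and 659 to 1802, 1021 and 679. The cause of the changed counts of genes was not tested.

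Changed signs (log2 fold change) in podocytes were −1.77 (Notch1), −0.65 (Notch2), −2.24 (Dll4) and −0.11 (Hes1) with mixed cells kept, −0.94, −0.50, −2.09 and −0.077 at resolution 2, −0.012 (Notch2) and −0.021 (Dll4) with at least 1000 UMIs, and −0.17 (Dll4) with DESeq2. In the endothelium they were 0.10 (Notch2), 0.093 (Jag2) and 0.032 (Hey1) in glomerular capillary cells alone, −0.17 (Notch1) and −0.20 (Notch4) in arteriolar-like cells alone, 0.15 (Jag2) and 0.17 (Dll4) in activated capillary cells alone, and −0.10 (Notch4), −0.37 (Jag1) and 0.24 (Dll4) in the Tspan8 cluster alone. In mesangial cells they were −0.31 (Notch2), 0.15 (Notch3), −0.41 (Notch4) and 0.066 (Hes1) with mixed cells kept, and −0.031 (Notch2), −0.10 (Notch4), 0.65 (Dll4) and 0.70 (Hes1) in cluster 9 alone. The single clusters, apart from glomerular capillary cells, were chosen after seeing the data.

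Leaving out 1 library gave ranges across 0. In podocytes these were −0.17 to 0.21 (Notch2), −0.56 to 0.22 (Notch4), −0.94 to 1.21 (Dll4) and −0.0086 to 0.046 (Hes1). In the endothelium they were −0.042 to 0.30 (Notch1), −0.50 to 0.42 (Notch2), −0.10 to 0.26 (Notch4), −0.063 to 0.31 (Jag1), −0.21 to 0.081 (Jag2), −0.25 to 0.13 (Dll4) and −0.37 to 0.15 (Hey1). In mesangial cells they were −0.10 to 0.57 (Notch2), −0.28 to 0.0074 (Hes1) and −0.10 to 0.57 (Heyl), and in Tagln Pcp4 Cpe cells −0.72 to 0.058 (Jag1). In smooth muscle and renin cells they were −0.20 to 0.050 (Notch1), −0.16 to 1.36 (Notch2), −0.084 to 0.37 (Notch3), −0.16 to 0.25 (Hes1) and −0.38 to 0.60 (Heyl), and for Hes1 between podocytes and mesangial cells −0.31 to 0.045.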
